A study of Mus musculus with 2 samples.

Results

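In white blood cells of mouse tumours, 10 receptor genes of natural killer (NK) cells were followed: Klrd1, Klrc1, Klrc2, Klrk1, Klre1, Klri2, Klrb1b, Klrb1c, Klrg1 and Ncr1. They were taken by their symbols, and all 10 are among the 32285 genes counted. The data are 2 single-cell RNA libraries, 1 per group, from KP tumours grown under the skin and collected at day 14 after inoculation. Tdg_WT carries the genotype label WT and Tdg_KO the label Tdg KO, a knockout of thymine DNA glycosylase, a DNA repair enzyme. The labels call the tissue an allograft tumour, and both libraries hold live cells sorted on CD45, a surface marker of leukocytes. The sources used here do not give the strain, age, number of mice or which cells carry the knockout.

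NK cells and type 1 innate lymphoid cells (ILC1) kill or help through the balance of activating and inhibitory receptors on their surface. CD94, the product of Klrd1, pairs with inhibitory NKG2A (Klrc1) or activating NKG2C (Klrc2), and both pairs read the non-classical MHC molecule Qa-1 (H2-T23). NKG2D (Klrk1) recognises stress-induced ligands, KLRE1 pairs with the activating chain KLRI2, NKR-P1B (Klrb1b) is inhibitory and NKR-P1C (Klrb1c, the NK1.1 antigen) activating, KLRG1 is an inhibitory receptor for cadherins, and NKp46 (Ncr1) is an activating receptor. All but Ncr1 encode C-type lectin-like proteins, while Ncr1 encodes an immunoglobulin-like one.

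In GRCm38 coordinates (the mm10 build), 8 of the genes lie within 962 kb of chromosome 6, the NK gene complex. They are Klrb1c (chr6:128778485-128789215), Klrb1b (chr6:128813706-128826331), Klre1 (chr6:129577905-129585827), Klrd1 (chr6:129591782-129598775), Klrk1 (chr6:129610323-129623864), Klrc2 (chr6:129647496-129660689), Klrc1 (chr6:129666015-129678973) and Klri2 (chr6:129729041-129740484). Klre1 and Klrd1 are on the forward strand and the other 6 on the reverse strand. Klrg1 (chr6:122270596-122282882, reverse strand) lies before them on the same chromosome, and Ncr1 (chr7:4337724-4345164, forward strand) on chromosome 7.

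After filtering, 5504 cells of Tdg_WT and 5693 of Tdg_KO were kept, with a median of 5378 and 6419 unique molecular identifiers (UMIs, 1 per counted RNA molecule) per cell. The 10 genes were left out of the clustering, and clusters were named from other marker genes. NK-like cells numbered 600 and 741 (Tdg_WT first, here and below), ILC1-like 247 and 248, CD8 T-like 307 and 356, CD4 T-like 728 and 650, regulatory T (Treg)-like 480 and 516, naive T-like 300 and 217, γδ T-like 112 and 178, and ILC2-like 55 and 60. A cluster of 270 and 363 cells led by Ly6c2, Klra1 and Klra6, with Cd3e UMIs in 86.7% and 91.7% of its cells, stayed unnamed and is called the Klra1/Klra6 cluster. Lymphoid cells in none of these classes were 401 of 3500 and 622 of 3951. The median mitochondrial share per cell was 1.82% and 2.47%, and the difference had the same direction in NK-like cells (1.91% and 2.41%). Its part in the results was not tested. Tdg itself was at 25.1 and 26.5 CPM (counts scaled to a common total, per the usual CPM unit) in the kept cells, so its level did not separate the libraries, and a count of RNA 3′ ends need not see a deletion. Libraries are therefore named by their labels. The libraries share 8 barcodes.

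The levels of some defining genes outside the 10 describe the classes. These genes were among the markers that named the clusters, so they are no separate check of the names. Eomes, a transcription factor of NK cells, had a UMI in 75.3% and 75.3% of NK-like cells and in 6.48% and 8.87% of ILC1-like cells. Gzmc was at 4763 and 3283 CPM in ILC1-like cells and at 63.6 and 77.7 CPM in NK-like cells. Cd3e, a T cell gene, was at 64.5 and 71.7 CPM in ILC1-like cells, with a UMI in 12.96% and 19.76% of them. In NK-like cells it was at 14.17 and 22.04 CPM, and in CD8 T-like cells at 673 and 693. Whether the ILC1-like class held T cells was not tested, nor was their part in its contrasts with NK-like cells. In Treg-like cells Foxp3 had a UMI in 80.4% and 81.2%. Levels below are CPM over all UMIs of the class in that library. They are compared between classes for the same gene and not between genes. Each group is a single library, which allows no test between them, and every interval is an exact 95% interval that covers counting error only.

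Across the 9 lymphocyte classes, 9 of the 10 genes had their highest level in NK-like or ILC1-like cells in both libraries, and Klrg1 had its highest in Treg-like cells. In both libraries the NK-like level exceeded the Treg-like one for 9 of 10 genes, beside 32.6% of all genes measured. Against CD4 T-like cells it was 10 of 10 (35.8% of all genes), and against CD8 T-like cells 8 of 10 (32.6%), Klrd1 and Klrc1 being the exceptions. Against ILC1-like cells it was 5 of 10 (31.5%). It was 10 of 10 against the Klra1/Klra6 cluster (37.5%), γδ T-like (34.9%) and naive T-like cells (58.4%), and 9 of 10 against ILC2-like cells (52.6%), Klrg1 being the exception. These shares are descriptions, because the classes were made from the same cells.

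**Figure D1:**
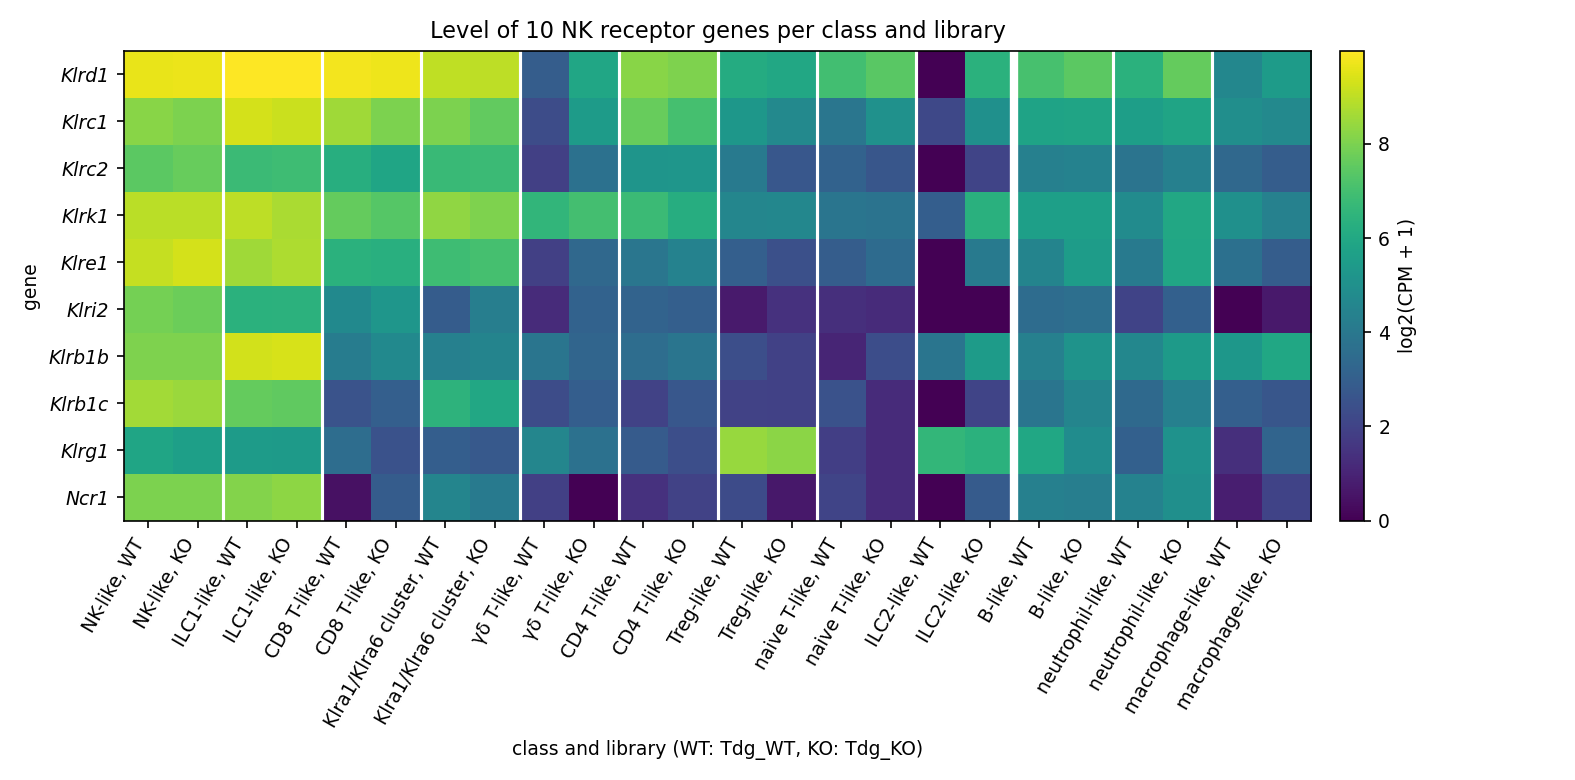
Level of each gene, as log2(CPM + 1), in 9 lymphocyte classes and 3 background classes (right of the thick line), with the Tdg_WT and Tdg_KO library of each class side by side. Klrd1 and Klrc1 extend from NK-like and ILC1-like cells into CD8 T-like and CD4 T-like cells, while Klrg1 is highest in Treg-like cells at 348 and 299 CPM.

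Free RNA in droplets gives UMIs in cells that do not express a gene, so detection was set against cells of other lineages. Each cell was thinned to 1000 UMIs for this. In B-like, neutrophil-like and macrophage-like cells (median depth 1808 to 4019 UMIs), the share of cells with a UMI of a receptor was then 0 to 4.07% in Tdg_WT and 0 to 7.14% in Tdg_KO. Before thinning it reached 12.5% and 18.2%. The 18.2% was Klrb1b in macrophage-like cells, which also gave the highest background of this gene in Tdg_WT (11.3%). Whether that signal was free RNA or expression in macrophage-like cells was not tested. B-like cells are a poor background, since 22.9% and 25.8% of their barcodes held marker genes of another lineage too. A gene was counted as above background where its interval lay above those of all 3 background classes in both libraries. By that measure 9 genes were above background in NK-like cells (all but Klrg1) and 8 in ILC1-like cells (all but Klrg1 and Klri2). In the Klra1/Klra6 cluster there were 5 (Klrd1, Klrc1, Klrc2, Klrk1 and Klre1). In CD8 T-like cells there were 3 (Klrd1, Klrc1 and Klrk1) and in CD4 T-like cells 2 (Klrd1 and Klrc1). Klrk1 alone stood above background in γδ T-like cells and Klrg1 alone in Treg-like cells. None did in naive T-like or ILC2-like cells. In the latter, thinned Klrg1 was found in 11.1% and 6.78% of cells, beside at most 1.69% and 2.58% in the background classes. With 55 and 60 ILC2-like cells the intervals overlapped in at least 1 library.

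**Figure D2:**
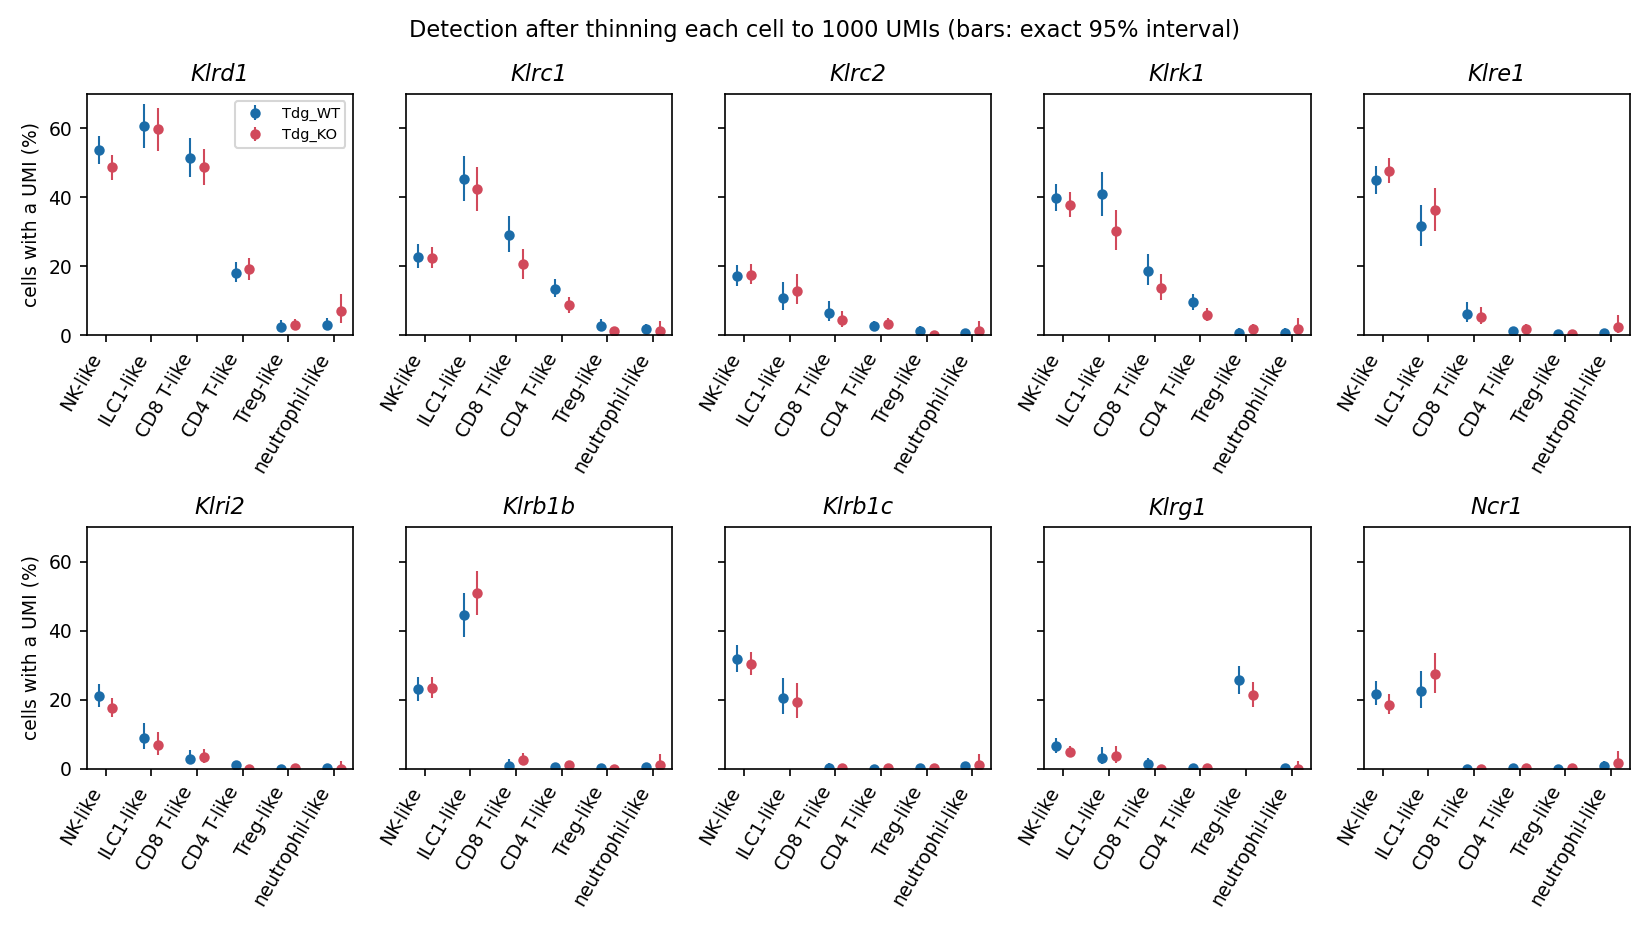
Share of cells with at least 1 UMI of each gene after thinning to 1000 UMIs, in 5 lymphocyte classes and in neutrophil-like cells as background (blue Tdg_WT, red Tdg_KO, bars exact 95% intervals). Klrd1 spans NK-like, ILC1-like, CD8 T-like and CD4 T-like cells, Klrb1b, Klrb1c and Ncr1 stay with NK-like and ILC1-like cells, and Klrg1 stands out in Treg-like cells.

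Klrd1, the shared partner chain of the NKG2 receptors, was above background in 5 classes, as were Klrc1 and Klrk1. It was at 999 and 1009 CPM in ILC1-like cells, 893 and 853 in CD8 T-like cells, and 802 and 822 in NK-like cells. The Klra1/Klra6 cluster (518 and 508 CPM), CD4 T-like cells (297 and 265) and naive T-like cells (123 and 169) followed in that order. The intervals of neighbouring classes in this part of the order did not overlap, except those of CD8 T-like and NK-like cells in Tdg_KO. Treg-like cells were at 70.3 and 61.9 CPM, with a detection after thinning (2.54% and 2.91%) no higher than in the background classes. A Klrd1 UMI was found in 91.0% and 91.6% of NK-like cells, 96.4% and 94.4% of ILC1-like cells and 90.2% and 87.9% of CD8 T-like cells.

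Klrc1 and Klrc2, the inhibitory and activating partners of CD94, were ordered in opposite ways between NK-like and ILC1-like cells. Klrc1 was at 292 and 255 CPM in NK-like cells and at 637 and 574 in ILC1-like cells, so NK-like cells had 0.46 (0.42 to 0.50) and 0.44 (0.41 to 0.48) of the ILC1-like level. Klrc2 was at 178 and 199 CPM in NK-like cells and at 109 and 117 in ILC1-like cells, 1.63-fold (1.40 to 1.89) and 1.70-fold (1.49 to 1.94) higher in NK-like cells. Klrc1 was found in nearly all ILC1-like cells (93.9% and 93.5%) but in fewer NK-like cells (47.2% and 44.9%). NK-like cells that had Klrc1 held a mean of 3.42 and 3.37 UMIs of it, and such ILC1-like cells 6.43 and 6.39, at a class median depth of 4964 and 5310 UMIs against 8565 and 9786. After thinning to equal depth the difference in detection remained, at 22.8% and 22.4% against 45.3% and 42.3%.

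Among T cells Klrc1 was at 376 and 255 CPM in CD8 T-like cells and at 200.4 and 132 in CD4 T-like cells, and Klrc2 at 74.5 and 57.0 and at 36.3 and 36.4. The CD4 T-like Klrc1 signal sat mainly in 1 of the 2 clusters. In the cluster led by Csf2, Tnfsf11 and Ccl1 (351 and 273 cells) Klrc1 was at 358 and 264 CPM, found in 57.8% and 43.6% of cells, and Klrd1 at 499 and 493 CPM. In the cluster led by Ramp3, Cd40lg and S1pr1 (377 cells in each library) Klrc1 was at 41.2 and 30.3 CPM and Klrd1 at 92.6 and 90.3. RNA of both chains of the CD94/NKG2A pair was thus found in the Csf2 cluster, Klrc1 at 358 and 264 CPM beside 292 and 255 in NK-like cells. Whether single cells of this cluster held both was not tested. Of the 60-base words in the last 500 bases of annotated Klrc1 transcripts, 37.5% also occur in Klrc2 or Klrc3, and 17.4% of those of Klrc2 in Klrc1 or Klrc3. Values of both genes are uncertain to the extent that reads from such stretches were left out or shared.

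The windows from 250 bases before to 50 bases after the first listed RefSeq start are shown for the pairs of genes that were ordered in opposite ways between NK-like and ILC1-like cells, Klrc1 with Klrc2 and Klrb1b with Klrb1c (RefSeq, GRCm38.p6). They are Klrc1 (chr6:129678924-129679223), Klrc2 (chr6:129660547-129660846), Klrb1b (chr6:128826266-128826565) and Klrb1c (chr6:128788592-128788891), each read 5′ to 3′ on its own, reverse strand. Capitals mark the core motifs TGTGGT (Runx family) and AGGAAG (Ets family) on either strand, read as ACCACA and CTTCCT where reversed, and in Klrb1c a pair of overlapping AGGAAG matches forms 1 run.
Klrc1: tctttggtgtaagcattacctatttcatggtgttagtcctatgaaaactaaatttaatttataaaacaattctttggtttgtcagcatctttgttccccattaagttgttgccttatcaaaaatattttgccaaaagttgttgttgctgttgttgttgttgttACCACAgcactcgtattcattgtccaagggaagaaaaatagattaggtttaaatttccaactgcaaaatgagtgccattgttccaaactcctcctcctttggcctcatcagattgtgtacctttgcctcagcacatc
Klrc2: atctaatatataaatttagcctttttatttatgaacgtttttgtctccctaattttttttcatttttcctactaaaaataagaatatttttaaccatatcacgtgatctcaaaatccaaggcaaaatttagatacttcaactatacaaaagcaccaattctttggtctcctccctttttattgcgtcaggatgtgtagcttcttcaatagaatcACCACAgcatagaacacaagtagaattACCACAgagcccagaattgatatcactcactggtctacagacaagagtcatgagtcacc
Klrb1b: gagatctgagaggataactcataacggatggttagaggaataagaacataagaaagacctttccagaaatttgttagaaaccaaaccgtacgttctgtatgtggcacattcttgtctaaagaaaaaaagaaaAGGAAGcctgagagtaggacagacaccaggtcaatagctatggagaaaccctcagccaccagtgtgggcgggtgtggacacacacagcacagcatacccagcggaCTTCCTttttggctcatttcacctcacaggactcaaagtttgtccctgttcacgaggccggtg
Klrb1c: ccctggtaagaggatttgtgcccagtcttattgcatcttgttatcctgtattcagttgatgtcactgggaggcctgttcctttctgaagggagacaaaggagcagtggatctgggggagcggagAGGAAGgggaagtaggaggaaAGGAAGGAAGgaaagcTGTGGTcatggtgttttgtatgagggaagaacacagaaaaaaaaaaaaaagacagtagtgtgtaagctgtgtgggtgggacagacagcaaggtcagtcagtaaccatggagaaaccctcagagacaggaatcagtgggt

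Of the 10 genes, 7 have such a window in the RefSeq table (not Klrd1, Klrg1 and Klri2). Klrc2, Klre1, Klrb1b and Ncr1 have 2 starts listed, of which the first was used. Windows at their other starts were not searched for these counts, whereas the share over all genes counts every listed window. The Runx core was in 6 of 7 windows, all but that of Klrb1b, and in 16.8% of 32851 windows of the same length over all genes. The Ets core was in 2 of 7 (35.4% of all windows), those of Klrb1b and Klrb1c, and the T-box core TCACAC, searched on both strands, in 2 of 7 (14.5%), those of Klre1 and Ncr1. A match is a description of the letters in the window and no evidence of binding.

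Klrk1, encoding NKG2D, was at 489 and 486 CPM in NK-like cells and at 511 and 414 in ILC1-like cells. The intervals of these classes overlapped in Tdg_WT and not in Tdg_KO. Lower levels were found in the Klra1/Klra6 cluster (318 and 263 CPM) and in CD8 T-like cells (197 and 162). In γδ T-like cells, which held 1 to 17 UMIs of each of the other 9 genes in Tdg_WT, Klrk1 was at 94.6 and 125 CPM with a UMI in 34.8% and 41.0% of cells. Hcst, the adaptor that carries the NKG2D signal, was at 389 to 889 CPM in every lymphocyte class and library.

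Klre1 and Klri2, which encode the chains of an activating heterodimer, were both highest in NK-like cells. Klre1 was at 555 and 652 CPM there and at 374 and 431 in ILC1-like cells, 1.48-fold (1.37 to 1.61) and 1.51-fold (1.41 to 1.62) higher in NK-like cells. Klri2 was at 234 and 210.2 CPM there and at 82.1 and 83.3 in ILC1-like cells, 2.85-fold (2.43 to 3.36) and 2.52-fold (2.17 to 2.94) higher in NK-like cells. Both intervals of Klri2 lay above those of Klre1, so the 2 chains differed in how far they were shifted towards NK-like cells. In the Klra1/Klra6 cluster Klre1 was at 116 and 130 CPM (the latter 117 to 143), whereas Klri2 was at 6.43 and 18.2.

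Klrb1b, the inhibitory NKR-P1 receptor, had the lowest NK-like to ILC1-like ratio of the 10 in both libraries, with an interval that overlapped that of Klrc1. It was at 262 and 265 CPM in NK-like cells and at 620 and 664 in ILC1-like cells, so the NK-like level was 0.42 (0.39 to 0.46) and 0.40 (0.37 to 0.43) of the ILC1-like level. Activating Klrb1c was at 387 and 360.0 CPM in NK-like cells and at 195 and 184 in ILC1-like cells, 1.98-fold (1.78 to 2.21) and 1.96-fold (1.76 to 2.17) higher in NK-like cells. The inhibitory genes Klrc1 and Klrb1b were thus both lower in NK-like cells, and the activating genes Klrc2 and Klrb1c, their nearest relatives among the 10, both higher. This split did not extend to all 10 genes. Inhibitory Klrg1, not above background in either class, had NK-like to ILC1-like ratios of 1.30 (1.02 to 1.67) and 1.13 (0.89 to 1.44). Those of activating Ncr1 were 0.92 (0.83 to 1.02) and 0.81 (0.74 to 0.89), and those of Klrk1 0.96 and 1.17. Klre1 and Klri2 were higher in NK-like cells. Past 1.5-fold in both libraries, 3 of 10 genes favoured NK-like cells (6.32% of all genes) and 2 of 10 ILC1-like cells (8.48%). In the Klra1/Klra6 cluster Klrb1c was at 86.9 and 62.7 CPM, found in 33.7% and 28.4% of its cells. Thinned, its detection there was 10.8% and 4.42%, beside at most 1.11% and 1.55% in the background classes, and the intervals overlapped in at least 1 library. CD8 T-like cells were at 4.87 and 7.16 CPM of it. In the last 500 bases, 20.4% of the words of Klrb1b and 16.2% of those of Klrb1c recur in another gene, among them each other.

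Ncr1, encoding NKp46, was found mainly in NK-like and ILC1-like cells. It was at 259 and 255 CPM in NK-like cells and at 281 and 314 in ILC1-like cells. CD8 T-like cells held 1 and 22 UMIs of it (0.375 and 6.56 CPM), and 10 of the 22 came from a single barcode. The Klra1/Klra6 cluster was at 22.5 and 16.1 CPM. Among the lymphocyte classes Tyrobp, the DAP12 adaptor of several activating receptors, was also highest in NK-like and ILC1-like cells. Unlike Ncr1, it was higher in NK-like cells (2507 and 2172 CPM) than in ILC1-like cells (1392 and 1513). It was at 186 and 167 CPM in the Klra1/Klra6 cluster and at 20.6 and 56.1 in CD8 T-like cells.

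Klrg1, the inhibitory cadherin receptor, departed from the other 9. Treg-like cells were at 348 and 299 CPM, with a UMI in 59.2% and 55.4% of cells, and ILC2-like cells came next at 96.1 and 81.8 CPM (36.4% and 26.7%). NK-like cells were at 57.3 and 48.2 CPM, 0.164 (0.140 to 0.192) and 0.161 (0.138 to 0.187) of the Treg-like level. The intervals of ILC2-like, NK-like and ILC1-like cells overlapped with their neighbours in this order, and B-like cells were at 61.2 and 28.2 CPM. Klrg1 was also found in an unnamed cluster of 95 and 209 barcodes led by Il2, Dgat2 and Foxp3 (132 and 120 CPM), where 44.4% of barcodes held UMIs of Cd8 genes together with Cd4 or Foxp3.

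Within NK-like cells Klrg1 differed between clusters. NK-like cells fell into a cluster led by Klra4, Klra8 and Eomes (290 and 433 cells), one led by Cma1, Serpinb9b and Gzma (171 and 147 cells), and one led by Ccl4, Ccl3 and Klra8 (139 and 161 cells). Klrg1 was at 179 and 184 CPM in the Cma1 cluster, with a UMI in 42.1% and 40.8% of cells, at 48.3 and 70.7 CPM in the Ccl4 cluster and in the Klra4 cluster it had a UMI in 5.86% and 5.08% of cells. The Cma1 and Ccl4 clusters both had Itgam, an integrin gene of mature NK cells, among their 10 leading genes. Klrb1b was high in the Cma1 cluster (381 and 347 CPM) and low in the Ccl4 cluster (146 and 192). Klrc1 hardly separated the clusters in Tdg_WT, at 281, 320.3 and 293 CPM in the Klra4, Cma1 and Ccl4 clusters, whose intervals overlapped, and in Tdg_KO it was at 248, 258 and 273 CPM.

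**Figure D3:**
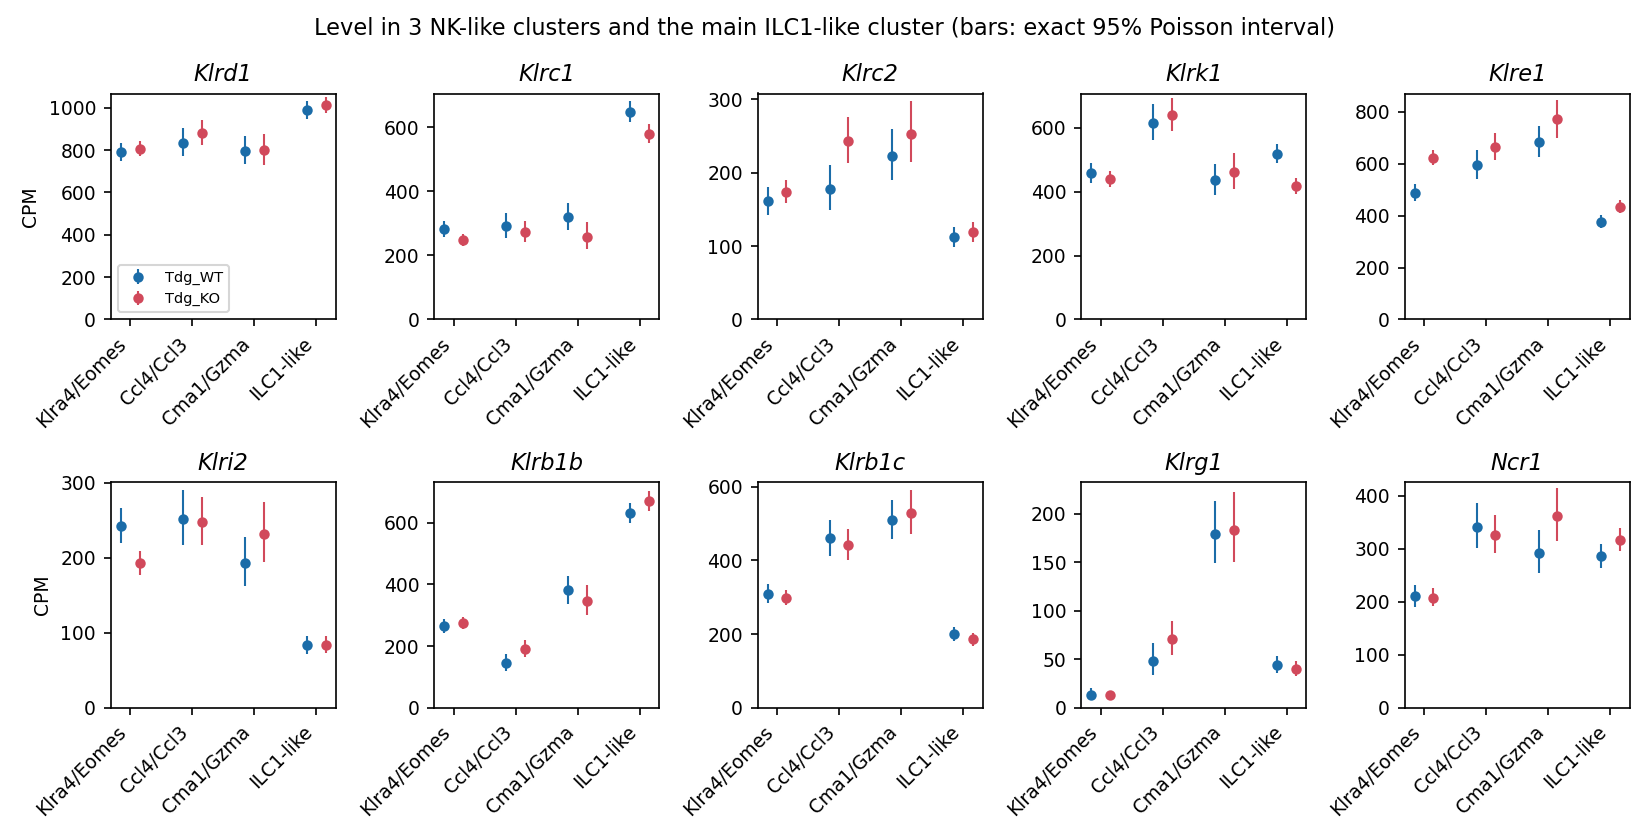
CPM of each gene in the 3 NK-like clusters, named by a pair of leading genes, and in the main ILC1-like cluster (blue Tdg_WT, red Tdg_KO, bars exact 95% Poisson intervals, each panel with its own axis from 0). Klrg1 is at 179 and 184 CPM in the Cma1 cluster and lowest in the Klra4 cluster, and Klrc1 and Klrb1b are highest in ILC1-like cells.

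Single NK-like cells carried several of the receptors at once. Thinned to 3000 UMIs, NK-like cells held a median of 5 of the 10 genes in both libraries, and 67.0% of 531 and 66.7% of 661 cells held 5 or more. ILC1-like cells also had a median of 5 (70.4% and 69.2% with 5 or more). CD8 T-like cells and the Klra1/Klra6 cluster had a median of 2, and Treg-like cells of 1. All 10 genes were seen together in no NK-like cell of Tdg_WT, where the highest number was 9, and 10 was reached in Tdg_KO.

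The other receptors were also compared between NK-like cells with and without a Klrc1 UMI. Klrb1b was found in 52.4% and 54.4% of cells with Klrc1 and in 40.8% and 36.3% of those without. Ncr1 was found in 54.8% and 55.2% of cells with Klrc1 and in 41.4% and 44.1% without. Klrc2 went the other way, at 33.3% and 33.5% with Klrc1 and 40.8% and 46.7% without, as did Klri2 (38.1% and 34.7% against 47.0% and 45.3%). For none of these 4 genes were the intervals with and without Klrc1 apart in both libraries. They were apart for Ncr1 in Tdg_WT and for Klrb1b and Klrc2 in Tdg_KO, and overlapped for Klri2 in both. Klre1 differed in direction, at 77.1% with and 74.5% without Klrc1 in Tdg_WT and at 75.0% and 85.7% in Tdg_KO. The direction for Klrb1b and for Klrc2 was the same in each of the 3 NK-like clusters and both libraries, and that for Ncr1 in all but the Cma1 cluster of Tdg_WT (47.5% against 56.2%). Klrd1, the partner that NKG2A needs at the surface, was found in 84.3% and 78.6% of cells with a Klrc1 UMI and in 85.0% and 84.3% of those without.

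**Figure D4:**
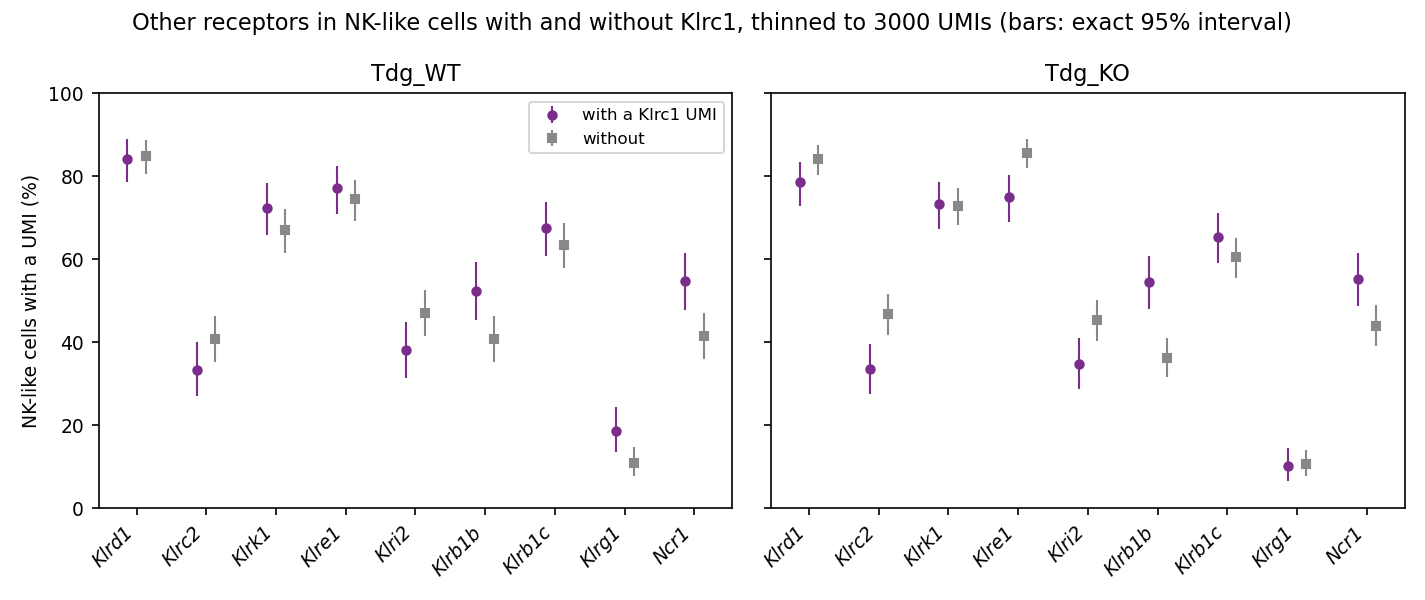
Share of NK-like cells with a UMI of each other receptor gene, for cells with (purple circles) and without (grey squares) a Klrc1 UMI, after thinning to 3000 UMIs, in each library (bars exact 95% intervals). Klrb1b and Ncr1 lie higher in cells with Klrc1, at 52.4% and 54.8% in Tdg_WT, and Klrc2 and Klri2 lower, with intervals that overlap in at least 1 library.

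Likeness of pattern was measured as Pearson's r of log2(CPM + 1) over 18 points, 9 lymphocyte classes in 2 libraries, among 10947 other genes. The points share libraries and depth and are no independent samples, so r is a description. The genes most like each receptor were Nkg7 for Klrd1 (0.98), Ctsw for Klrc1 (0.96), Tbkbp1 for Klrc2 (0.95), 5830432E09Rik for Klrk1 (0.92), Samd3 for Klre1 (0.98), Slc2a6 for Klri2 (0.96), Bahcc1 for Klrb1b (0.94), Fcer1g for Klrb1c (0.96), Tyrobp for Ncr1 (0.97) and Pcyt1a for Klrg1 (0.93). Fcer1g and Tyrobp encode signalling adaptors of NK receptors. Klrg1 had r between -0.31 and 0.23 with the other receptors, whereas Klrc1 and Klrc2 had 0.94 with each other and Klrb1c and Ncr1 0.93.

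Between the libraries, the receptor levels of NK-like cells were close. None of the 10 genes differed by 1.5-fold or more in either direction, beside 5.8% of all genes with at least 50 UMIs in the class. The ratios of Tdg_KO to Tdg_WT ran from 0.84 for Klrg1 to 1.17 for Klre1. Klre1 (1.17, 1.11 to 1.25) and Klrc2 (1.12, 1.01 to 1.25) were higher in the library labelled Tdg_KO, and Klrc1 (0.87, 0.80 to 0.95) and Klri2 (0.90, 0.82 to 0.99) lower. The intervals of the other 6 ratios included 1. Klre1 was higher in each NK-like cluster, with the interval above 1 in the Klra4 cluster only (488 and 623 CPM, ratio 1.28, 1.18 to 1.38). Klrc2 was also higher and Klrc1 lower in each cluster. Klri2 was at 0.80 (0.70 to 0.90), 1.20 (0.94 to 1.54) and 0.98 (0.81 to 1.20) in the Klra4, Cma1 and Ccl4 clusters. Klrg1 was at 0.95, 1.03 and 1.46 there, each above its class ratio. The Cma1 cluster, highest in Klrg1, held 171 of 600 and 147 of 741 NK-like cells. Its part in the class ratio was not tested. The median ratio of all genes in NK-like cells was 0.06 above zero on the log2 scale.

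In ILC1-like cells, too, none of the 10 genes passed 1.5-fold (7.82% of all genes did). Klrk1 was at 511 and 414 CPM, a ratio of 0.81 (0.75 to 0.88), and Klrc1 at 637 and 574 CPM, 0.90 (0.84 to 0.97). Klre1 was at 374 and 431 CPM, 1.15 (1.05 to 1.26), and Ncr1 at 281 and 314 CPM, 1.12 (1.01 to 1.24), which was 0.99 in cells gated on single marker genes. Thinned to 1000 UMIs, 1 gene passed the fold, Klrk1 with 0.60.

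Among the genes above background, Klrc1 had the ratio farthest from 1 in CD4 T-like and CD8 T-like cells and in the Klra1/Klra6 cluster. In CD4 T-like cells Klrc1 was at 200.4 and 132 CPM, a ratio of 0.66 (0.59 to 0.74), and Klrk1 at 110.0 and 73.0 CPM, 0.66 (0.57 to 0.77), so 2 of 7 measured genes passed 1.5-fold, beside 6.33% of all genes. Klrd1, the partner of NKG2A, was at 297 and 265 CPM, 0.89 (0.82 to 0.97), and at 1.01 after thinning. The share of CD4 T-like cells with a Klrc1 UMI was 32.4% (29.0% to 35.9%) and 22.8% (19.6% to 26.2%). Within the Csf2 cluster the ratio of Klrc1 was 0.74 (0.65 to 0.83), short of 1.5-fold, and that of Klrk1 0.63 (0.51 to 0.78). This cluster made up 351 of 728 and 273 of 650 CD4 T-like cells, and the part of this in the class ratio was not tested. Klrk1 was not above background in Tdg_KO by detection, and in cells gated on single marker genes its ratio was 1.10. Under a stricter cell filter, or without barcodes of 2 lineages, 1 gene passed 1.5-fold in place of 2.

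In CD8 T-like cells Klrc1 was at 376 and 255 CPM, a ratio of 0.68 (0.62 to 0.74), short of 1.5-fold. Its detection was 68.4% (62.9% to 73.6%) and 55.1% (49.7% to 60.3%). The ratio was 0.68 (0.61 to 0.75) in the larger CD8 T-like cluster, led by Cd8b1 and Gzmk, and 0.79 (0.63 to 0.98) in the cluster led by Nrgn. Klrk1 (197 and 162 CPM, 0.82, 0.73 to 0.93) and Klrc2 (74.5 and 57.0 CPM, 0.76, 0.62 to 0.94) were lower over the class as well. In the Cd8b1 cluster their ratios were 0.78 (0.68 to 0.90) and 0.72 (0.57 to 0.91). In the Nrgn cluster they were 0.99 (0.78 to 1.27) and 1.02 (0.65 to 1.62). Klrd1 was at 893 and 853 CPM over the class (0.96, 0.90 to 1.01). In this class 1 of 7 measured genes passed 1.5-fold (6.77% of all genes), Klrb1b with 46 and 87 UMIs, whose detection was within that of the background classes.

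**Figure D5:**
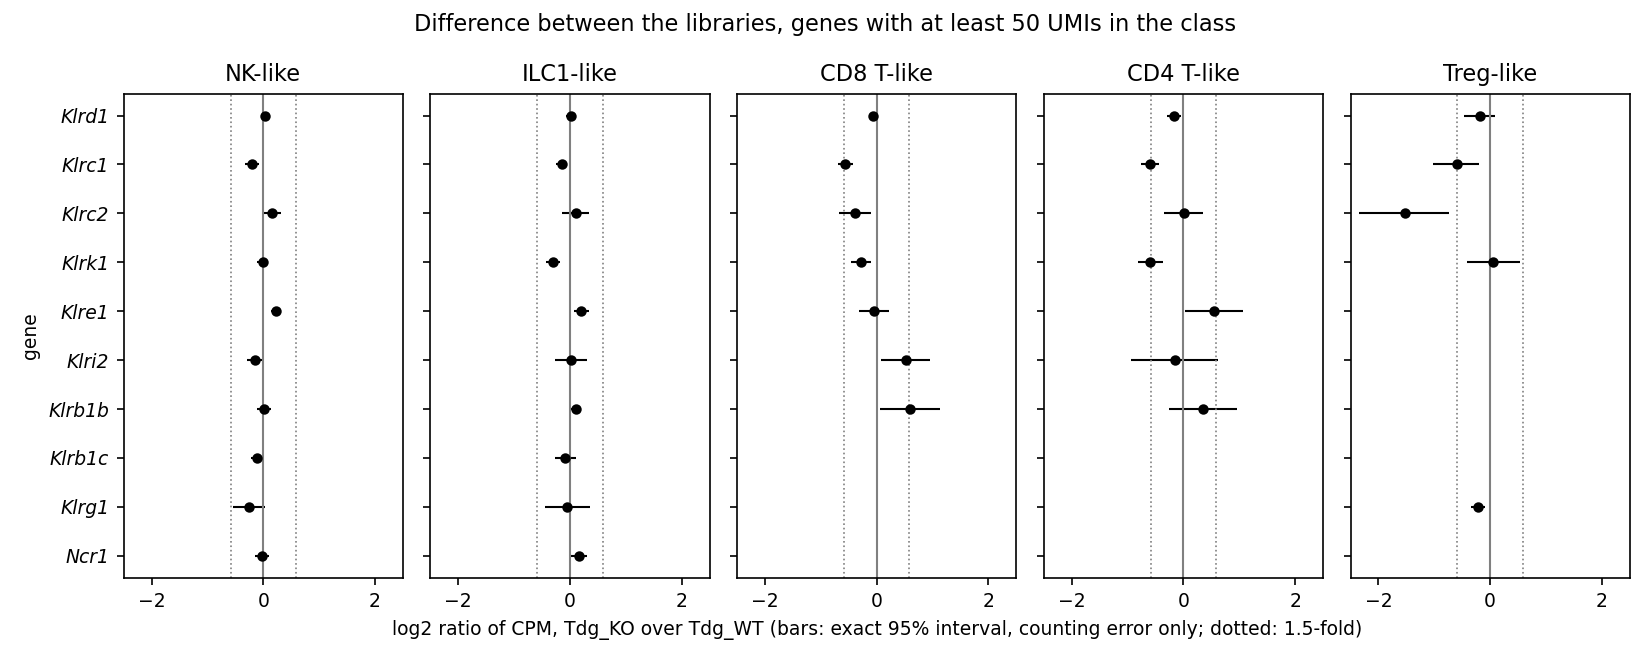
Log2 ratio of CPM, Tdg_KO over Tdg_WT, for genes with at least 50 UMIs in the class over both libraries (bars exact 95% intervals covering counting error, dotted lines 1.5-fold either way). Klrc1 lies left of zero in all 5 classes, by 0.20 in NK-like and 0.60 in CD4 T-like cells on the log2 scale.

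The ratio of Klrc1 was below 1 in 6 classes: 0.87 in NK-like, 0.90 in ILC1-like, 0.68 in CD8 T-like, 0.73 (0.64 to 0.82) in the Klra1/Klra6 cluster, 0.66 in CD4 T-like and 0.66 (0.49 to 0.87) in Treg-like cells. All classes come from the same 2 libraries, so the 6 ratios are no replicates. In γδ T-like and naive T-like cells it was above 1, on few UMIs. In Treg-like cells it was 1.11 under the gate on single marker genes. The direction held in each of the 11 alternative settings in NK-like (0.83 to 0.92), ILC1-like (0.84 to 0.94), CD8 T-like (0.64 to 0.77) and CD4 T-like cells (0.55 to 0.71). Klrk1 was below 1 in ILC1-like, CD8 T-like and CD4 T-like cells and in the Klra1/Klra6 cluster, at 0.99 (0.93 to 1.06) in NK-like cells, and above 1 in Treg-like (1.04, 0.75 to 1.44) and γδ T-like cells (1.33, 0.99 to 1.79).

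In Treg-like cells Klrg1, the 1 gene above background there, was at 348 and 299 CPM, a ratio of 0.86 (0.79 to 0.94). Klrc1 (117 and 90 UMIs) and Klrc2 (49 and 20 UMIs, 0.35, 0.20 to 0.60) passed 1.5-fold, which made 2 of 5 measured genes (5.25% of all genes). Neither was above background in both libraries. Thinned, Klrc1 was found in 2.75% and 1.16% of Treg-like cells beside at most 1.81% and 3.09% in the background classes, and Klrc2 in 1.27% and 0% beside 0.74% and 1.19%. Not above background in both libraries, too, were Klri2 in the Klra1/Klra6 cluster (12 and 52 UMIs, 1 of 9 measured genes, 7.06% of all genes) and Klrc1 in naive T-like cells (27 and 47 UMIs, 1 of 2, 8.14%). Thinned, Klri2 was found in 0.372% and 2.49% of cells of that cluster, beside 0.201% and 1.55%. Nor were Klrd1 (5 and 69 UMIs) and Klrc1 (3 and 50 UMIs) in γδ T-like cells (2 of 3, 11.5%), where 20.3% and 24.0% of the Tdg_KO UMIs came from 1 barcode. In the same γδ T-like cells markers of other types differed too: Cd8a was at 6.76 and 58.5 CPM, Cd8b1 at 8.11 and 55.0, Cd4 at 5.41 and 31.8 and the macrophage gene C1qb at 5.41 and 37.0, while S100a8 of neutrophils was at 32.4 and 4.30 and Cd79a of B cells at 0 in both. Their part in the result was not tested. In ILC2-like cells Klrg1 was the 1 gene measured, and it did not pass (16.8% of all genes did). Genes count as measured with at least 50 UMIs over both libraries, and a gene that reached this only through the library where it was high had to differ.

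Of the adaptor and proximal signalling genes in NK-like cells, none of 14 passed 1.5-fold in either direction (4.51% of all genes were higher in Tdg_KO by that much and 1.29% lower). Tyrobp was at 2507 and 2172 CPM (0.87, 0.84 to 0.89), Fcer1g, the Fc receptor gamma chain, at 2341 and 2159 CPM (0.92, 0.89 to 0.95), and Hcst at 761 and 599 CPM (0.79, 0.75 to 0.83). In ILC1-like cells 1 of 14 was higher, the kinase gene Syk with 25 and 43 UMIs (1.56, 0.93 to 2.66), and none lower (5.37% and 2.45% of all genes). Of 12 measured in CD8 T-like cells, 3 were higher and none lower (4.94% and 1.83% of all genes): Tyrobp (2.72, 2.01 to 3.75), Fcer1g (2.59, 2.09 to 3.23) and Vav1 (1.87, 1.34 to 2.64). In CD4 T-like cells 2 of 12 were higher, Tyrobp (1.69, 1.32 to 2.18) and Ptpn11 (1.57, 1.24 to 1.98), and none lower (4.35% and 1.98%). In Treg-like cells 2 of 12 were lower, Tyrobp (0.45, 0.30 to 0.65) and Fcer1g (0.55, 0.40 to 0.75), and none higher (2.49% and 2.76%). Tyrobp was at 12.2 to 56.1 CPM in these T cells and at 4280 and 3041 CPM in neutrophil-like cells, and the part of free RNA was not tested. Of ligand genes read in NK-like and ILC1-like cells, H2-T23 was at 284 and 274 CPM in NK-like cells and Clec2d, the ligand of NKR-P1B, at 131 and 94.1 (0.72, 0.63 to 0.82). Higher past the fold were 2 of 5 ligand genes, Cdh1 with 11 and 41 UMIs (2.81, 1.42 to 6.06) and Ulbp1 with 23 and 46 (1.51, 0.90 to 2.61). In ILC1-like cells Cdh1, a cadherin ligand of KLRG1, was at 37.2 and 58.9 CPM (1.58, 1.21 to 2.09), and Clec2i at 29.1 and 18.6 (0.64, 0.43 to 0.94). They were the genes past the fold among 4. Ligands on tumour cells are not covered, since the cells were sorted on CD45.

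Other receptors of the NK gene complex also stayed within the fold in NK-like cells, 0 of 11 in either direction. For this list and the next ones, 4.51% of all genes were higher and 1.29% lower in NK-like cells, and 5.37% and 2.45% in ILC1-like cells. Klra4 was at 613 and 669 CPM and Klra8 at 505 and 532 CPM, and the farthest was Klra3 at 164 and 115 CPM (0.70, 0.62 to 0.79). In ILC1-like cells 2 of 10 were higher, Klra3 at 22.7 and 47.3 CPM (53 and 122 UMIs, ratio 2.09) and Klra4 with 24 and 41 UMIs. Of 10 transcription factors measured in NK-like cells, Ikzf2 (57.6 and 92.9 CPM, 1.61, 1.36 to 1.93) was higher and none lower, and none of 9 passed the fold in ILC1-like cells. Of 8 maturation and residence genes, 1 was higher (Cxcr6, 20 and 42 UMIs, 1.58, 0.91 to 2.85) and 1 lower (Cx3cr1, 50 and 42 UMIs, 0.63, 0.41 to 0.97) in NK-like cells. In ILC1-like cells the integrin genes Itga1 (116 and 182 CPM, 1.57, 1.35 to 1.83) and Itgae (24.4 and 38.4 CPM, 1.57, 1.13 to 2.22) were higher.

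Of 10 effector genes in ILC1-like cells, 5 were lower past the fold and none higher (2.45% and 5.37% of all genes): Gzma, Csf2, Ccl5, Prf1 (perforin) and Ifng (interferon gamma). Gzma, encoding granzyme A, was at 827 and 310.1 CPM (0.37, 0.34 to 0.41), the cytokine gene Csf2 at 60.3 and 14.3 CPM (0.24, 0.16 to 0.34) and the chemokine gene Ccl5 at 1161 and 749.7 CPM (0.65, 0.61 to 0.68). In NK-like cells 0 of 9 passed the fold, with Ccl5 at 14363 and 10011 CPM (0.70, 0.69 to 0.71) and Gzma at 7212 and 5843 CPM (0.81, 0.80 to 0.82). Of the 9 intervals, 7 lay below 1. Gzma had a UMI in 18.6% and 17.3% of ILC1-like cells, so its level there rests on few cells. Prf1 was at 228 and 128 CPM in ILC1-like cells, whereas its share of cells with a UMI was 49.4% and 53.6%. The class also holds a small cluster of 6 and 2 cells led by Gzmg, Gzmf, Gzmd and Gzme. Its part in these ratios was not tested. In CD8 T-like cells 3 of 10 effector genes were lower and none higher (1.83% and 4.94% of all genes), Gzmb at 440.2 and 201 CPM (0.46, 0.41 to 0.50), Ifng at 319.9 and 119.6 CPM (0.37, 0.33 to 0.42) and Csf2 with 78 and 47 UMIs. In CD4 T-like cells 1 of 9 was higher (Gzma, 110 and 208 UMIs) and 1 lower (Csf2, 223 and 71.4 CPM), beside 4.35% and 1.98% of all genes. In Treg-like cells 2 of 9 were higher and 2 lower (2.76% and 2.49% of all genes). The higher ones were Ifng (45 and 126 UMIs) and Xcl1 (89 and 195 UMIs). The lower ones were Gzmb (1070 and 650 CPM) and Prf1 (35 and 25 UMIs), the latter with an interval that included 1 (0.35 to 1.05).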

How the data were processed

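The deposited values are whole-number UMI counts per gene and barcode, made by Cell Ranger 6.0.1 per the file headers. Seurat and the mm10 build appear in the submitters' processing notes. The sources used here do not name the annotation. Barcodes were kept from 200 genes up and to a mitochondrial UMI share of 10% (98.2% and 96.6%). They were clustered in scanpy 1.11.5 with Python 3.11.15 (2000 variable genes without the 10 receptors, 30 principal components, 15 neighbours, Leiden resolution 1), lymphoid cells again on their own. Clusters were named "-like" from at least 3 markers, none of them a member. After the data were seen, clusters led by no own marker and scoring under 0.5 were kept unnamed (144 and 161 cells, 4.11% and 4.07% of lymphoid cells). No doublet caller was used; barcodes with markers of 2 lineages were left out as an alternative.

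UMIs were summed per class and library (CPM). Ratios have exact conditional Poisson and shares exact Clopper-Pearson 95% intervals (scipy 1.17.1), for counting error only; the interval script was checked on simulated counts. With 1 library per group there is no test. Thinning drew 1000 UMIs (3000 for genes seen together) per cell and left out shallower cells. Named genes are the 10 members, from each list the 2 with most UMIs in NK-like cells and the 2 most extreme ratios, and the genes most like each member; other genes were chosen after their values were seen. The list gene Klrh1 was not found. Members and lists were chosen with earlier results of these data known. Positions are from GENCODE M21 on GRCm38, windows from RefSeq on GRCm38.p6.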

Additional observations from a re-analysis of the deposited data

How the results depend on the processing

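No paired analysis was possible because each group has 1 library. The counts of genes higher in NK-like cells than in other classes stayed within 1.5 times under every alternative, and no gene passed 1.5-fold in NK-like cells under any. Other counts of genes past 1.5-fold moved. Gating on single marker genes gave 3 in CD8 T-like (from 1) and 6 in Treg-like cells (from 2); only 44.4% and 41.1% of gated CD8 T cells were in the named class. Thinning gave 1 in ILC1-like (from 0), 3 in CD8 T-like, 6 in the Klra1/Klra6 cluster (from 1), 4 in CD4 T-like (from 2), 1 in γδ T-like (from 2) and 0 in naive T-like cells (from 1). Leiden resolution 0.5 gave 0 in CD8 T-like cells and in the Klra1/Klra6 cluster, and resolution 2 gave 2 in both and in naive T-like cells. Weighting every cell equally gave 0 in CD8 T-like, 4 in CD4 T-like, 1 in Treg-like and 2 in naive T-like cells. The stricter cell filter, and leaving out barcodes of 2 lineages, gave 1 in CD4 T-like cells. A minimum of 10 UMIs gave 3 in CD8 T-like, 8 in γδ T-like, 4 in CD4 T-like, 5 in Treg-like, 2 in naive T-like and 3 in ILC2-like cells, because more genes are then counted. Of the 54 ratios of Tdg_KO to Tdg_WT measured, 27 turned to the other side of 1 under at least 1 alternative, 21 of them with an interval that included 1. The other 6, with the ratio under the alternative in brackets, were Ncr1 in gated ILC1 cells (0.989), Klrd1 in thinned CD4 T-like cells (1.01), Klrk1 in gated CD4 T cells (1.10), Klrc1 (1.11) and Klrc2 (1.64) in gated Treg cells, and Klrc1 in thinned γδ T-like cells (0.618). In the main setting all of these but Ncr1 and Klrd1 had passed 1.5-fold, on the other side of 1. Klrc1 in CD4 T-like cells passed 1.5-fold in 9 of 11 alternatives and Klrk1 in 8 of 11. The causes were not tested. Depth limits genes near 50 UMIs, most of all in the γδ T-like and ILC2-like classes.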
